A study of Mus musculus with 13 samples.

Results

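The 44 genes described here encode transcription factors of embryonic development that carry no homeobox. They are 11 Sox factors, 9 T-box factors, 6 zinc-finger factors (Zic1, Zic2, Zic4, Zic5, Sp8 and Sall3), Gata2 and Gata3, 6 forkhead (Fox) factors and 10 basic helix-loop-helix (bHLH) factors. They were chosen by gene symbol from the 25183 gene identifiers of both count tables, whether or not a read was found. Earlier results of these data were known when the members were chosen. 41 of them have a row in the tables of both sequencing runs and Sox10 in 1 table only, and no row matched Olig2 or Neurog1, which were not analysed here.

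These genes are used in the embryo to set apart germ layers and organs such as the neural tube, limbs, heart, kidney and gonads, and most are kept off in the adult gut epithelium. Genes of this kind are the classical targets of Polycomb repressive complex 2 (PRC2), which places the H3K27me3 mark on their CpG-rich promoters. Eed is the PRC2 subunit that binds this mark and that the complex needs for activity, whereas Ezh2 is 1 of its 2 alternative catalytic subunits, the other being Ezh1.

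The data are strand-specific RNA-seq of mouse small intestine in 13 libraries and 5 groups. Crypts, the epithelial pockets that hold the intestinal stem cells, came from mice of a mixed C57BL/6-FVB background that were 6 weeks old when beta-naphthoflavone was started and received it for 6 weeks. Their genotypes were wild type (WT, n = 3), Eed-/- (Eed KO, n = 3) and Ezh2-/- (Ezh2 KO, n = 3). Organoids, epithelial cultures grown from crypts, were exposed to the same compound for 10 days and were WT (strain FVB, n = 2) or Eed-/- (C57BL/6-FVB, n = 2). Beta-naphthoflavone was given to every group, WT included. It switches on the AhCre transgene, which the labels name for the organoids and for the crypts of run 440, WT included, and which deletes floxed alleles in cells where its promoter answers. The labels of the run 385 crypts do not name the Cre. Libraries are called by group, run (385 or 440) and number.

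Depth ran from 11421666 to 18300644 counts per library. Levels are CPM, that is counts scaled to the effective size of each library. Eed was at 54.4 ± 5.23 CPM (SD, n = 3) in WT crypts, 19.0 ± 5.14 in Eed KO crypts (n = 3), 67.8 ± 7.82 in WT organoids (n = 2) and 24.8 ± 7.97 in Eed KO organoids (n = 2). Ezh2 was at 85.9 ± 12.2 CPM in WT and 19.1 ± 2.29 in Ezh2 KO crypts (n = 3 each), so both deleted genes were lower in their own knockout and neither was at 0. In bulk RNA, fewer cells of a type and less RNA per cell cannot be told apart. Of 16 epithelial markers, 7 (Epcam, Krt20, Cdx1, Cdx2, Hnf4a, Lgr5 and Lyz1) were lower in Eed KO than in WT crypts and 0 differed in Ezh2 KO crypts, with median log2 fold changes of -0.51 and -0.18. Their summed level, 50770 to 58670 CPM in WT, 11050 to 22420 in Eed KO and 25250 to 34800 in Ezh2 KO crypts, was mostly that of the Paneth cell gene Lyz1 in WT crypts. Nothing in the labels says that replicates came from different mice or cultures, and every p-value here reflects library-to-library spread alone, technical or not. The WT crypts of run 385 had a male pattern (35.5 and 57.4 CPM of the Y-linked Ddx3y), as had the Eed KO organoids (47.5 and 50.8), and the other 9 libraries had 289 to 3460 CPM of Xist and at most 1 Ddx3y count.

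The stretch just upstream of the transcription start is shown for 6 members, since CpG content is the feature by which PRC2 targets are usually described. Sox2 and Zic1 were among the members with the highest levels per length in Eed KO crypts, Sp8 had no CpG, Sox21 and Zic5 were already read in WT organoids, and Twist2 was almost unread everywhere. Each run is 150 bases, 5′ to 3′ on the gene's strand, from RefSeq promoters on GRCm38.p6, and capitals mark the CpG dinucleotides.
Sox2, chr3:34649845-34649994, plus strand: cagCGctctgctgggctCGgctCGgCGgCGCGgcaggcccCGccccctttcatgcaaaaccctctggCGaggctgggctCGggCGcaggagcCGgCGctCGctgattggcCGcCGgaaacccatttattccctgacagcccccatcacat
Zic1, chr9:91365811-91365960, minus strand: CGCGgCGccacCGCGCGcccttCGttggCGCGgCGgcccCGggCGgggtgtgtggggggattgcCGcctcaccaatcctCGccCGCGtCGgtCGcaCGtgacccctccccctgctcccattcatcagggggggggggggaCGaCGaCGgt
Sp8, chr12:118846179-118846328, plus strand: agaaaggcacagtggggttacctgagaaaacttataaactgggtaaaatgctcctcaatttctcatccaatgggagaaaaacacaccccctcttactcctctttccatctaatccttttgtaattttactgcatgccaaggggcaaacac
Sox21, chr14:118237031-118237180, minus strand: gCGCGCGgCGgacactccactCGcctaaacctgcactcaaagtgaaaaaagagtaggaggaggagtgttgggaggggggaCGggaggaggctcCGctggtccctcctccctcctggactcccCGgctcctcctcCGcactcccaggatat
Zic5, chr14:122465678-122465827, minus strand: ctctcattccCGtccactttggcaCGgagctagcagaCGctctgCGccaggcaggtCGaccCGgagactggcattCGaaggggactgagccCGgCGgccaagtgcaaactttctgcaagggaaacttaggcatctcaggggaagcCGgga
Twist2, chr1:91801311-91801460, plus strand: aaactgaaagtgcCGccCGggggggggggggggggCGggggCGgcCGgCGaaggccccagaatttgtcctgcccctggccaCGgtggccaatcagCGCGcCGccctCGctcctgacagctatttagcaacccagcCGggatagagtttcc
The windows end at the RefSeq start site, or before the deposited gene where that began further upstream (by 42 bases for Zic1 and 19 for Zic5). In GENCODE M21 the Sox2 window lies in an intron of the noncoding gene Sox2ot and the Zic1 window in an intron of Zic4. The Twist2 window lies in an exon of an antisense gene, and the Sox21 window partly in an exon of a noncoding gene on the other strand. Counted as CG, which reads alike on both strands, there were 22 CpG in the Zic1 window, and 3.07% of 27025 RefSeq promoter windows of this length had at least as many. Sox2 had 15 (15.4% of promoters had at least as many), Twist2 12 (23.3%), Zic5 10 (26.9%), Sox21 9 (32.2%) and Sp8 0. The promoter table held 28 of the 44 members, under 80%, so no summary of promoter composition over the members is given. A count of CpG describes these letters only.

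In WT crypts the members were almost unread, and in Eed KO crypts all 41 had counts. Without Tbx3, the one member read at a high level everywhere, the summed level of the members was 1.87, 4.76 and 7.47 CPM in the 3 WT crypts, 4.12 to 6.68 in the 3 Ezh2 KO crypts, and 416, 343 and 278 CPM in Eed KO crypts 385_1, 385_2 and 440_1. The Eed KO crypts lay above all 6 others, and the Ezh2 KO crypts lay inside the WT range. In organoids the same sum was 19.8 and 20.1 CPM in WT and 161 and 132 CPM in Eed KO. The median over the 41 members of the group mean rose from 0.0296 CPM in WT to 3.90 CPM in Eed KO crypts and was 0.0210 CPM in Ezh2 KO crypts, beside medians of 4.69, 6.80 and 4.52 CPM over the 21420 genes in both tables. 19 of the 41 members had no count in any WT crypt, and 33 had none in either WT organoid.

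**Figure D1:**
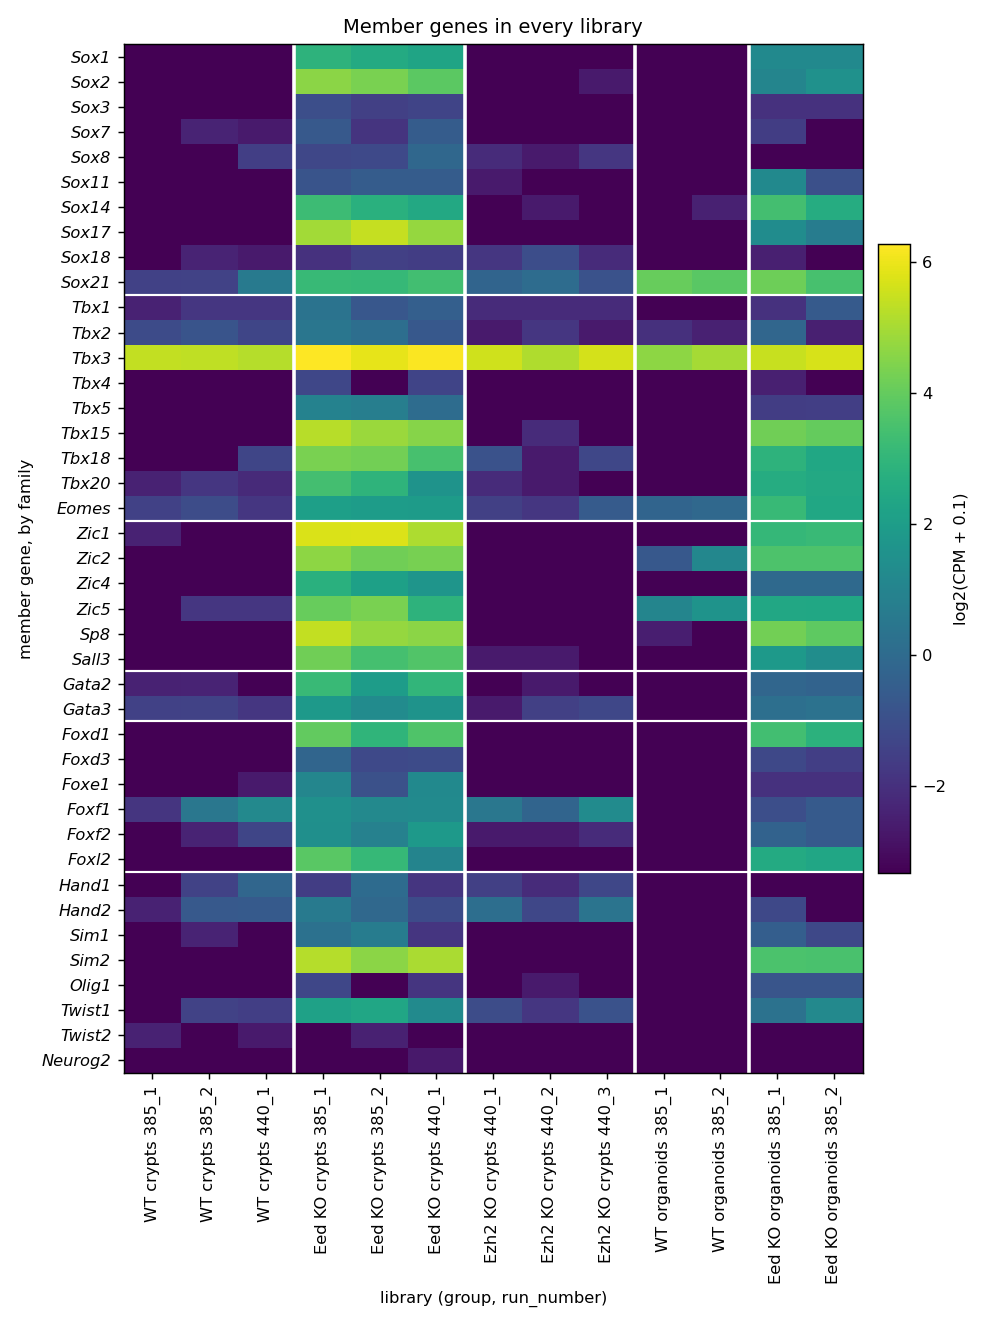
Level of the 41 members in both count tables (rows, grouped by family with thin lines) in the 13 libraries (columns, grouped with thick lines), as log2(CPM + 0.1). Eed KO crypts and Eed KO organoids stand out from the WT groups and from Ezh2 KO crypts, Tbx3 is read in every library, and Sox21 is read in both organoid groups.

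For a comparison free of any low-count filter, members with at most 3 counts summed over the WT group were taken. 26 of the 41 members met this in WT crypts, and 14 of the 26 reached at least 1 CPM in each of the 3 Eed KO crypts: Sox1, Sox2, Sox14, Sox17, Tbx15, Zic1, Zic2, Zic4, Sp8, Sall3, Gata2, Foxd1, Foxl2 and Sim2. Of all genes equally silent in WT crypts 3.55% did so, and of the protein-coding ones 6.63%. None of the 26 did so in Ezh2 KO crypts, where the shares were 0.0418% of all and 0.0834% of protein-coding genes. In organoids 15 of 36 members did so, beside 4.37% of all and 6.96% of protein-coding genes. The lowest Eed KO crypt lay above the highest WT crypt for 34 of 41 members, beside 15.5% of all genes of both tables. Those that overlapped were Tbx4, Foxf1, Hand1, Hand2, Olig1, Twist2 and Neurog2. Ezh2 KO crypts lay above WT without overlap for 1 of 41 members (8.26% of all genes), Sox18, an endothelial factor at 2 to 6 counts, named here after its values were seen. Eed KO organoids lay above WT organoids for 31 of 41 members, beside 27.5% of all genes. The members were chosen with earlier results of these data known, so these shares describe them and are no independent support.

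The test across all genes asked which members differed between Eed KO and WT crypts (edgeR quasi-likelihood test with Benjamini-Hochberg adjustment at 0.05, run as a term). 26 members passed the low-count filter, 24 were higher and 0 lower, where 13.4% of all 14406 tested genes were higher. The 2 that did not pass the threshold were Foxf1 and Hand2. Of the 26, Sox21, Tbx3 and Foxf1 alone passed the same filter without the Eed KO libraries. Apart from Hand2, which had 16 and 19 counts in Ezh2 KO crypts 440_1 and 440_3, the others passed it through their high group. They had to differ, so the count adds no support. Over the 26 the log2 fold change had a median of 8.16, which became 6.54 with the 13 members that had no WT count set at their lower bound, beside -0.04 over all genes. By family, 5 of 5 tested Sox, 6 of 6 T-box, 6 of 6 zinc-finger, 2 of 2 Gata, 3 of 4 Fox and 2 of 3 bHLH members were higher. The median and these counts by family rest on the same filter and add no support either. The other 15 of the 41 were too low to test. The counts within single runs, given next, depend on the same kind of filter and add no support either. In run 385 both WT crypts had the male pattern and both Eed KO crypts had Xist. Sex pattern and genotype cannot be told apart there, and the contrast of all crypts includes these libraries. Within run 440, where all 5 crypts had Xist and no Ddx3y count, 24 of 26 were higher (1 library of each genotype, with the spread pooled over the 9 crypts), and within run 385 25 of 28 were higher.

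Among the Sox factors, Sox2 and Sox17 reached the highest levels per length in Eed KO crypts. Sox17, a factor of definitive endoderm and of arterial endothelium, was at 30.8, 43.5 and 26.9 CPM in Eed KO crypts 385_1, 385_2 and 440_1, with 0 counts in all WT and all Ezh2 KO crypts. It was at least 422-fold higher than in WT and at least 522-fold higher than in Ezh2 KO crypts, taking a floor of 3 counts summed over the group without a count. In Eed KO organoids it was at only 2.47 and 1.53 CPM, from 31 and 19 counts, with 0 counts in WT organoids. Sox2, a factor of pluripotent cells, neural progenitors and foregut, was at 24.1, 20.4 and 14.3 CPM in Eed KO crypts (at least 245-fold above WT), with 0 counts in WT crypts and WT organoids and 0, 0 and 1 in Ezh2 KO crypts. It too was lower in Eed KO organoids, at 1.99 and 2.81 CPM. The start of Sox2 lies 400 bases further upstream in the table of run 385 than in that of run 440.

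Sox14, a factor of spinal and midbrain interneurons, differed from both in being as high in culture. It was at 9.42, 6.75 and 5.46 CPM in Eed KO crypts and 10.5 and 6.10 CPM in Eed KO organoids, with 0 counts in WT crypts, 0, 1 and 0 in Ezh2 KO crypts and 0 and 1 in WT organoids. Sox1, the neural plate factor, was at 5.96 ± 1.27 CPM in Eed KO crypts and 2.24 ± 0.0150 in Eed KO organoids, with no WT count (at least 75.1-fold and 18.7-fold higher). Sox3, Sox7, Sox8, Sox11 and Sox18 stayed under 1 CPM in every Eed KO crypt, at group means from 0.214 to 0.548 CPM. They include the neural factors Sox3 and Sox11 and the endothelial factors Sox7 and Sox18. Sox11, whose deposited gene spans 2013 bases in run 385 and 8311 in run 440, was at 2.23 and 0.402 CPM in the Eed KO organoids. Sox10, the neural crest and glia factor, was listed in run 440 only and had 1 count in its 5 crypts together.

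Markers of the cell types that use these factors in adult gut were read in the same libraries. The 15 markers of blood and lymph endothelium summed to 20.5 to 31.6 CPM in WT, 25.2 to 39.9 in Eed KO and 17.1 to 23.3 in Ezh2 KO crypts, and 0 of 7 tested markers passed the threshold in Eed KO crypts, with Flt1 at 0 in WT. The 12 markers of enteric neurons and glia summed to 9.61 to 12.0 CPM in WT and 12.1 to 17.6 in Eed KO crypts, with 0 of 5 past the threshold and S100b and Fabp7 at 0 in WT. The Eed KO and WT ranges of the endothelial sum overlapped, those of the neural sum did not, and the part of such cells in the Sox genes was not tested.

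Tbx3 was the T-box factor read at 1 CPM or more in every library. Tbx3, a repressor that acts in limb, mammary gland and stem cell renewal, was at 41.6, 40.6 and 36.4 CPM in WT crypts 385_1, 385_2 and 440_1 and at 77.2, 60.0 and 74.0 CPM in the matching Eed KO crypts. Ezh2 KO crypts were at 47.5, 34.5 and 49.6 CPM, across the WT range. Eed KO organoids, at 43.6 and 51.0 CPM, lay above WT organoids, at 25.1 and 31.5 CPM. The log2 fold change was 0.84 ± 0.18 (SE, adjusted p = 0.00988) in crypts and 0.74 ± 0.17 (adjusted p = 0.0240) in organoids, by edgeR. With the replicate number as a block the crypt call of Tbx3 was lost (edgeR adjusted p = 0.0525), as it was without Eed KO crypt 385_1 (adjusted p = 0.0636). Its organoid call was lost without Eed KO organoid 385_2 (edgeR adjusted p = 0.0813) or WT organoid 385_1 (adjusted p = 0.132).

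The T-box factors of skin, somite and heart mesoderm went from near 0 to clear levels. Tbx15, of dermis and limb mesenchyme, was at 37.8, 28.3 and 22.9 CPM in Eed KO crypts and 18.4 and 16.1 CPM in Eed KO organoids, with 0 counts in the WT of both (at least 373-fold and 144-fold higher) and 0, 2 and 0 in Ezh2 KO crypts. Tbx18, of somites, epicardium and ureter mesenchyme, was at 19.9, 18.7 and 10.97 CPM in Eed KO crypts, with 0, 0 and 5 counts in WT crypts and 7, 1 and 5 in Ezh2 KO crypts. Its Eed KO organoids were at 7.32 and 5.22 CPM, with 0 WT counts. Tbx20, of heart muscle and cushions, varied most among these: 10.6, 7.51 and 2.93 CPM in Eed KO crypts, 1, 2 and 2 counts in WT crypts, 2, 1 and 0 in Ezh2 KO crypts, and 5.97 and 5.38 CPM in Eed KO organoids with 0 WT counts. Eomes, of early mesendoderm, cortex progenitors and cytotoxic lymphocytes, rose from 0.272 ± 0.0913 to 3.92 ± 0.190 CPM in crypts (edgeR adjusted p = 0.000844) and from 0.803 ± 0.0741 to 6.95 ± 2.55 CPM in organoids (adjusted p = 0.00284). Tbx5, of heart and forelimb, was at 1.44 ± 0.448 CPM in Eed KO crypts with no WT count (at least 17.9-fold higher). Tbx1, Tbx2 and Tbx4 had group means of 0.773, 0.929 and 0.202 CPM in Eed KO crypts and were not tested. Tbx4 lies 44.5 kb from Tbx2 on chromosome 11 and Tbx5 150 kb from Tbx3 on chromosome 5.

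Lymphoid markers were measured beside Eomes and Gata3, which lymphocytes also use. The 14 markers of T, NK and innate lymphoid cells summed to 38.6 to 45.3 CPM in WT and 49.0 to 72.5 CPM in Eed KO crypts, and 1 of 12 tested (Il2rb) was higher. In Eed KO organoids 10 of the 14, the Cd3 genes among them, had no count. There 222 counts of Rora made up nearly all of a sum of 10.4 and 7.79 CPM, and Eomes stood at 8.75 and 5.14 CPM. The part of lymphoid cells in the levels of Eomes and Gata3 was not tested. Gata3, a factor of T cells, kidney and trophoblast, was at 3.50, 2.36 and 2.93 CPM in Eed KO crypts, with 3 counts in each WT crypt and 1, 4 and 5 in Ezh2 KO crypts, and at 1.03 and 1.12 CPM in Eed KO organoids with 0 WT counts. Gata2, a factor of blood stem cells and mast cells, was at 8.88, 3.88 and 7.80 CPM in Eed KO crypts against 2 WT counts together (ratio 135, 95% counting interval 37.1 to 1122), and at 0.796 and 0.723 CPM in Eed KO organoids. The mast cell markers, 10 of 11 in both tables, summed to 96.8 to 133 CPM in WT, 199 to 338 in Eed KO and 52.6 to 80.6 CPM in Ezh2 KO crypts, and 2 of 5 tested (Kit and Cma1) were higher in Eed KO crypts. Of 9 tested markers of macrophages and other myeloid cells 4 were higher and 1 lower in Eed KO crypts. In organoids the mast cell sum was 32.43 and 40.04 CPM in WT and 104.5 and 106.1 CPM in Eed KO. Of the markers tested there, 2 of 2 were higher in Eed KO. Of the 10 markers, 6 had no count in WT organoids and 4 had none in Eed KO organoids, against 0 in WT crypts and 1 in Eed KO crypts. Sums of crypts and of organoids therefore do not rest on the same genes. The mast cell sum and Gata2 were both higher in Eed KO than in WT, in crypts and in organoids. The part of mast cells in the level of Gata2 was not tested.

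Of the 6 zinc-finger factors, 4 were at 10 CPM or more in every Eed KO crypt. Zic1, of dorsal neural tube and cerebellum, was at 53.4, 54.4 and 33.6 CPM in Eed KO crypts, with 1, 0 and 0 counts in WT crypts and 0 in Ezh2 KO crypts. In organoids it had 0 WT counts and was at 8.27 and 8.995 CPM in Eed KO. The crypt ratio to WT was 1757 (95% counting interval 315 to 69450). Zic4 overlaps Zic1 by 3397 bp on the other strand of chromosome 9 (Zic1 at chr9:91358058-91365810). No source used here gives whether counting kept the strand, so reads of the overlap cannot be told apart. Zic4 was at 6.77, 4.30 and 3.11 CPM in Eed KO crypts with no WT count. Sp8, of limb ridge and forebrain, was at 42.2, 27.2 and 24.1 CPM in Eed KO crypts and 18.7 and 14.9 CPM in Eed KO organoids, with 0 counts in WT and Ezh2 KO crypts and 1 and 0 in WT organoids. Its upstream window, printed above, had no CpG. Sall3, of limb and neural development, was at 13.9 ± 3.97 CPM in Eed KO crypts (at least 178-fold above WT) and 3.04 ± 0.771 in Eed KO organoids.

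Zic2 and Zic5 are divergent neighbours 9.76 kb apart on chromosome 14, both active in the dorsal neural tube, and both were already read in WT organoids. Zic2 was at 24.8, 17.97 and 19.8 CPM in Eed KO crypts with 0 counts in all WT and Ezh2 KO crypts. In organoids it had 7 and 24 WT counts, or 0.525 and 2.05 CPM, and was at 11.9 and 12.1 CPM in Eed KO. Zic5 was at 16.4, 20.1 and 7.27 CPM in Eed KO crypts against 0, 2 and 3 WT counts and 0 in Ezh2 KO crypts, and at 5.33 and 5.14 CPM in Eed KO against 1.95 and 2.91 CPM in WT organoids. The genotypes did not overlap for Zic5 in organoids, and the log2 fold change of 1.11 ± 0.33 missed the threshold (edgeR adjusted p = 0.0594).

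Sox21 was read at overlapping levels in WT and Eed KO organoids. Sox21, a Sox factor that counters Sox2-type activators in the neural tube and marks anterior gut and hair follicle, had 3, 3 and 23 counts in WT crypts and was at 8.72, 8.60 and 10.3 CPM in Eed KO crypts. In organoids WT was at 16.4 and 14.1 CPM and Eed KO at 17.7 and 11.2 CPM, so the genotypes overlapped (log2 fold change -0.08 ± 0.24, edgeR adjusted p = 0.859). Without Eed KO organoid 385_2 this difference was 0.20 and without WT organoid 385_1 it was 0.01. Its 12, 15 and 7 counts in Ezh2 KO crypts lay across the WT range.

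**Figure D2:**
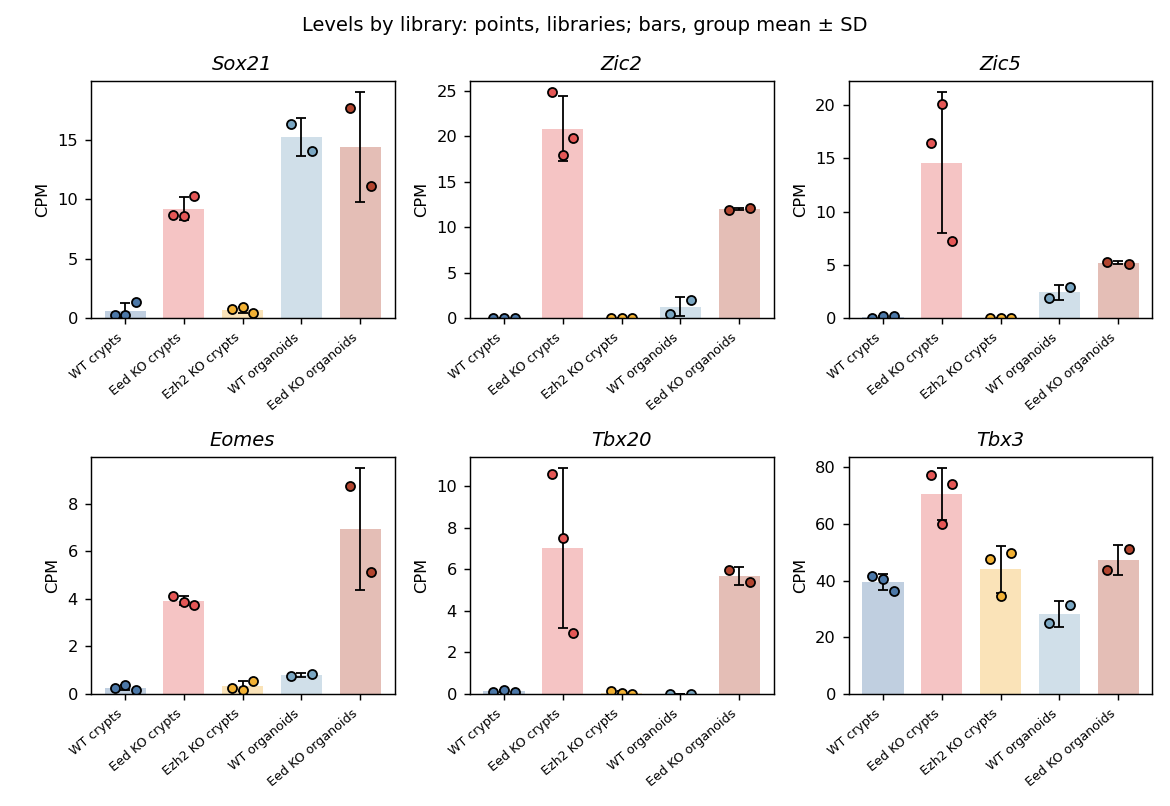
CPM of Sox21, Zic2, Zic5, Eomes, Tbx20 and Tbx3 in the 5 groups, with libraries as points, group means as bars from 0 and SD as error bars. Sox21 is as high in WT as in Eed KO organoids, Zic2 and Zic5 are above 0 in WT organoids, and Tbx3 is read in every group.

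Of the Fox factors, Foxd1 and Foxl2 had the highest levels in Eed KO crypts, per length as well. Foxd1, of kidney stroma and retina, was at 15.7, 7.76 and 12.4 CPM in Eed KO crypts and 10.1 and 7.07 CPM in Eed KO organoids, with 0 counts in WT crypts, Ezh2 KO crypts and WT organoids (at least 156-fold and 71.6-fold above WT). Foxl2, of granulosa cells of the ovary, was at 14.2 and 8.60 CPM in Eed KO crypts 385_1 and 385_2 and at 1.94 CPM in 440_1. The deposited gene spans 2520 bp in the table of run 385 and 1241 bp in that of run 440, so these 3 values do not count the same bases. By DESeq2 its call was lost (adjusted p = 0.0503). The noncoding gene next to it, Foxl2os, was at 21.3, 29.7 and 7.80 CPM in the same crypts, with 1 count in WT and 0 in Ezh2 KO crypts. Foxf2, of gut mesenchyme, was at 2.63 ± 0.845 CPM in Eed KO against 0.132 ± 0.157 in WT crypts, and Foxe1, of thyroid and foregut, at 1.56 ± 0.990 CPM against 1 WT count, too low to test. Foxd3, of neural crest and epiblast, stayed at 0.489 ± 0.251 CPM.

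Foxf1, a hedgehog target in gut mesenchyme, was the only other member at 1 CPM or more on average in WT crypts, and it did not pass the test. It was at 0.178, 1.28 and 2.20 CPM in WT crypts 385_1, 385_2 and 440_1, at 2.73, 2.19 and 2.29 CPM in Eed KO crypts, and at 1.31, 0.760 and 2.39 CPM in Ezh2 KO crypts. The groups overlapped (log2 fold change 1.11 ± 0.68, edgeR adjusted p = 0.283). Hand2, a bHLH factor of heart, limb and gut muscle and neurons, was at 0.396 ± 0.266 CPM in WT, 0.866 ± 0.525 in Eed KO and 0.837 ± 0.462 in Ezh2 KO crypts (log2 fold change 0.95 ± 0.79, edgeR adjusted p = 0.427, and -0.63 within run 440). Hand1, its relative, was at 0.357 ± 0.404 CPM in WT and 0.446 ± 0.418 in Eed KO crypts and was too low to test. The 16 mesenchyme and muscle markers summed to 47.6, 183 and 851 CPM in WT crypts 385_1, 385_2 and 440_1, in the same order as Foxf1 and Hand1 there. They summed to 156 to 352 CPM in Eed KO and 151 to 462 in Ezh2 KO crypts, and 0 of 16 passed the threshold in Eed KO crypts. In Eed KO crypts Hand1 also followed the order of the sum, but Foxf1 was lowest in 385_2, where the sum was highest. In Ezh2 KO crypts the sum was highest in 440_1, whereas Foxf1 and Hand1 were highest in 440_3. In organoids they summed to 1.35 and 2.40 CPM in WT and 8.19 and 8.59 CPM in Eed KO, and Foxf1 had 0 WT counts and 5 and 7 counts in Eed KO. The part of mesenchymal cells in these values was not tested.

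**Figure D3:**
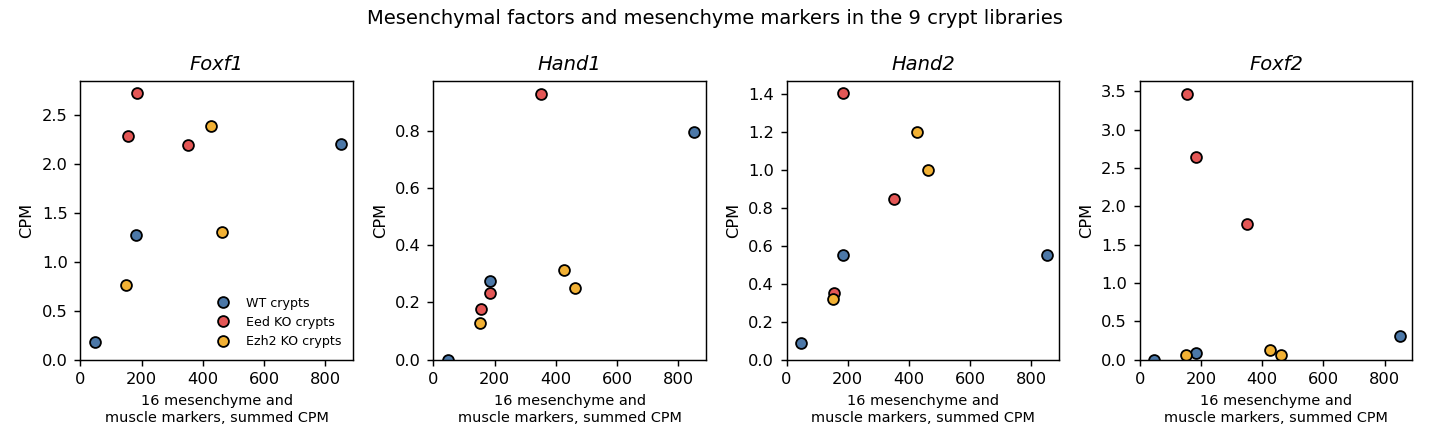
CPM of Foxf1, Hand1, Hand2 and Foxf2 (vertical axes) against the summed CPM of 16 mesenchyme and muscle markers (horizontal axes) in the 9 crypt libraries, coloured by group. WT crypt 440_1 has the highest marker sum, 851 CPM, and its Foxf1 is within the Eed KO range, whereas Foxf2 is higher in all 3 Eed KO crypts than in the other 6.

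Sim2 was the bHLH factor with the highest level. Sim2, of forebrain midline and muscle, was at 36.7, 24.2 and 33.2 CPM in Eed KO crypts and 11.7 and 11.5 CPM in Eed KO organoids, with 0 counts in the other 3 groups (at least 407-fold and 96.6-fold above WT). Its relative Sim1, of hypothalamus and kidney, had 14, 18 and 3 counts in Eed KO crypts and 1 in WT. Twist1, of mesenchyme and neural crest, was at 4.36, 5.06 and 2.29 CPM in Eed KO crypts, with 0, 3 and 4 WT counts and 6, 3 and 7 Ezh2 KO counts, and at 1.11 and 2.17 CPM in Eed KO organoids with 0 WT counts. The remaining bHLH genes had few counts. Olig1, of oligodendrocytes, had 4, 0 and 3 counts in Eed KO crypts and 6 and 6 in Eed KO organoids, with 0 in both WT groups. In Eed KO crypts Twist2 had 0, 1 and 0, and the neurogenic factor Neurog2 had 0, 0 and 1.

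Compared per kb of exon, the order of the members in Eed KO crypts was Tbx3 (10.6 ± 1.39 CPM per kb), Sox2 (9.54 ± 2.41), Zic1 (8.28 ± 2.06), Tbx15 (7.92 ± 2.02), Sim2 (7.43 ± 1.52), Zic2 (7.24 ± 1.24), Sox17 (7.08 ± 1.82), Sp8 (6.84 ± 2.12), Tbx18 (3.51 ± 1.03) and Sox14 (3.49 ± 0.980), all SD with n = 3. From Sox2 to Sp8 no neighbours in this order differed by more than their SD. In WT crypts Tbx3 was at 5.97 CPM per kb and the other 9 at 0.0216 or less. The lengths are GENCODE M21 exon lengths, not those of the gene models that were counted. They exceed the whole deposited gene for Foxd1 (5.064 kb against 2461 and 2462 bp) and Foxl2 (3.256 kb against 2520 and 1241 bp). Levels per length may therefore be understated for Foxd1 and Foxl2, and their place in this order is not settled.

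In Ezh2 KO crypts 0 of the 26 tested members passed the threshold against WT, where 0.0208% of 14406 genes (3) did. 0 of the 26 had an unadjusted p under 0.05, and DESeq2 also called 0. 9 of the 26 had no count in either group, and Sox21, Tbx3 and Foxf1 alone pass the low-count filter without the Eed KO libraries, so little of the 26 could be tested here. Between the knockouts, 23 of 26 members were higher in Eed KO than in Ezh2 KO crypts, where 12.0% of all genes were. Since nearly all of them passed the filter through the Eed KO libraries, this count adds no support either. Tbx3 (0.67 ± 0.21, edgeR adjusted p = 0.0565), Foxf1 and Hand2 did not pass. Both contrasts share the Eed KO or WT crypts with the first one. All 3 Ezh2 KO crypts were in run 440, and without Eed KO crypt 440_1, the only one of that run, 5 of 28 members passed (Sox21, Tbx18, Zic5, Foxf2 and Tbx20). Within run 440, 24 of 26 were higher in Eed KO than in Ezh2 KO crypts. Zic1 illustrates the size of the difference at 33.6 CPM (573 counts) in Eed KO crypt 440_1 and 0 counts in all 3 Ezh2 KO crypts of that run.

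In organoids 21 members passed the low-count filter, and 19 were higher in Eed KO and 0 lower, where 13.5% of 12958 genes were higher. 16 of the 21 had at most 3 WT counts and passed through the Eed KO libraries, so this count adds no support. WT and Eed KO organoids also differ in strain and in sex pattern, which cannot be told apart from the genotype in this contrast or in the interaction. The median log2 fold change was 7.81, or 4.32 with 14 members at their lower bound, beside 0.00 over all genes. This median rests on the same filter and adds no support either. Sox21 and Zic5, described above, were the 2 that did not pass. Organoids held no member at 10 CPM or more in both Eed KO libraries beyond Tbx3, Tbx15, Sp8, Sim2, Zic2 and Sox21, whereas 10 members met this in all 3 Eed KO crypts.

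An interaction term, fitted on the 13 libraries together, asked whether the Eed effect differed between crypts and organoids. 3 of 29 tested members were past the threshold, all with the larger effect in crypts, where 1.13% of 14761 genes were and the median over all genes was -0.14. They were Sox21 (log2 difference 4.002 ± 0.61, edgeR adjusted p = 0.00575), Zic5 (5.47 ± 0.79, adjusted p = 0.00812) and Zic2 (7.91 ± 1.32, adjusted p = 0.0249). Zic2 had 0 counts in all WT crypts, so its crypt effect has only a lower bound (at least 267-fold). The ratio of its summed counts in organoids was 9.71. Its 7.91 depends on how the fit treats 0 counts and is not a measured size. With the replicate number as a block no member passed, and the edgeR adjusted p was 0.0727 for Sox21, 0.0677 for Zic5 and 0.129 for Zic2. Zic2 was also lost when any of 6 single libraries was left out (edgeR adjusted p 0.0504 to 0.0756). The next 5 by adjusted p, Tbx20, Gata3, Foxf1, Sp8 and Twist1, had edgeR adjusted p from 0.248 to 0.461. For 10 members without a count in either WT group, among them Sox2, Sox17 and Sim2, the contrast holds no information.

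The same 3 genes differed between the WT groups. WT crypts were lower than WT organoids for Sox21 (log2 -4.94 ± 0.49, edgeR adjusted p = 5.4e-05), Zic5 (-3.77 ± 0.67, adjusted p = 0.00307) and Zic2 (-7.08 ± 1.25, adjusted p = 0.00605), 3 of 29 tested, where 9.17% of 14761 genes were lower. With 0 counts of Zic2 in WT crypts, its -7.08 is not a measured size either. Foxf1 and Gata3, 2 of 29 members, were higher in WT crypts, where 18.9% of genes were, and both calls were lost without WT crypt 385_2 or either WT organoid (edgeR adjusted p up to 0.0922 for Foxf1 and 0.126 for Gata3), and that of Gata3 also without WT crypt 385_1 (0.0541). The share of members lower in WT crypts was near that of all genes. WT crypts and WT organoids also differ in strain and in length of treatment, and the WT crypts of run 385 differ in sex pattern. These differences cannot be told apart from the tissue here. The interaction uses the same WT libraries.

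Set directly against each other, Eed KO crypts were higher than Eed KO organoids for 10 of 29 members and lower for 0, where 15.6% of genes were higher. Members could pass the low-count filter through the Eed KO crypts alone, as Tbx5 did (58 counts there, 6 in Eed KO organoids). Gata2 had 293 and 19 counts. The count of 10 is thus partly set by the filter, and its comparison with all genes adds no support. Sox17 differed most, by 4.21 ± 0.40 on the log2 scale (edgeR adjusted p = 0.00106), then Sox2 by 3.21 ± 0.43 (adjusted p = 0.00141) and Gata2 by 3.14 ± 0.63 (adjusted p = 0.00559), and Zic1 differed by 2.65 ± 0.29 (adjusted p = 0.000625). These 4 kept their call in all 14 alternatives to this fit. The other 6 were Tbx5, Zic4, Sall3, Zic5, Sox1 and Sim2, with differences of 1.39 to 2.77, and each was lost in 2 to 6 alternatives. The count of 10 became 4 without Eed KO crypt 385_1 and 17 without Eed KO crypt 440_1, 16 without WT crypt 440_1, 6 and 4 without Eed KO organoid 385_1 and 385_2, and 18 in run 385 alone. At the other end Sox21 (-0.94 ± 0.39, edgeR adjusted p = 0.0985), Eomes (-0.73 ± 0.42, 0.216) and Sox14 (-0.04 ± 0.52, 0.966) had negative differences that did not pass. Eed KO crypts and organoids also differ in the length of treatment and in the sex pattern, which cannot be told apart from the tissue here.

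**Figure D4:**
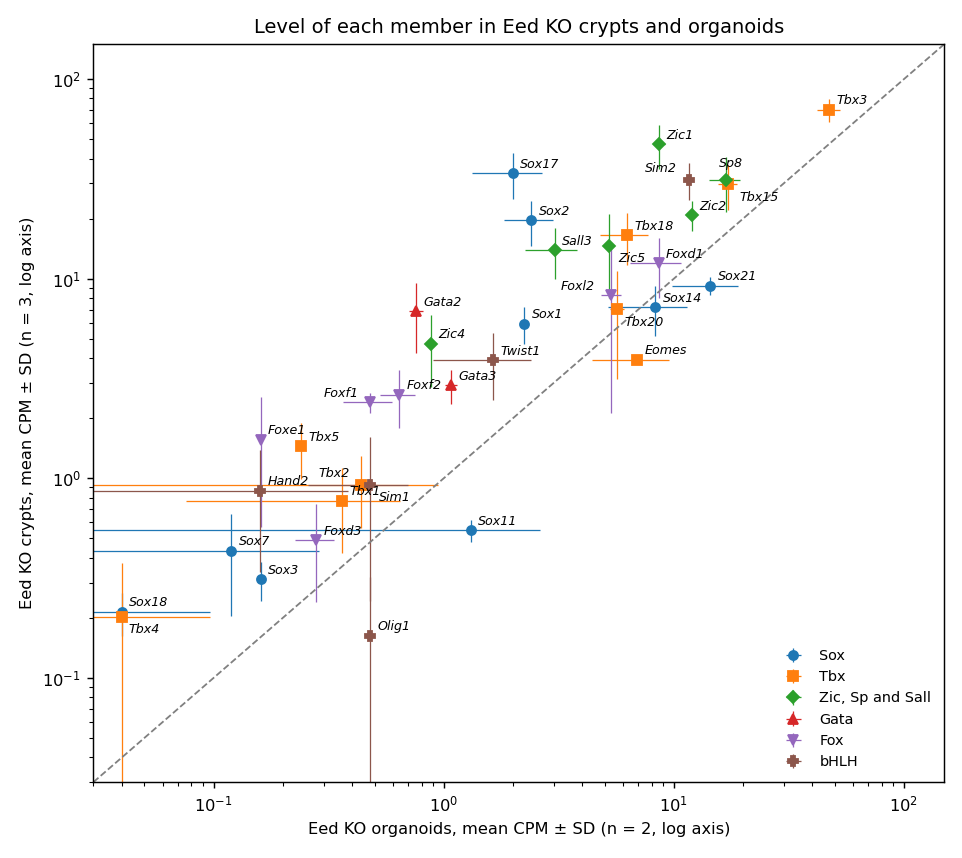
Mean CPM ± SD of each member in Eed KO crypts (vertical, n = 3) against Eed KO organoids (horizontal, n = 2), both on log axes, with the line of equal levels dashed and symbols by family. The 4 members without an organoid count (Sox8, Hand1, Twist2 and Neurog2) are not drawn. Sox17 and Sox2 lie far above the line, and Sox14, Sox21, Eomes and the low Sox11 and Olig1 lie on its other side.

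Relatives of the members outside the set were read in the same libraries. Of the other Fox genes 7 of 22 tested were higher and 2 lower in Eed KO than in WT crypts (median log2 fold change 0.15), of the other tissue-specific bHLH genes 8 of 24 higher and 3 lower (0.66), of the other Sp and Sall genes 4 of 9 higher and 1 lower (0.90), and of the other Sox genes 1 of 6 higher and 1 lower (0.38). Of the other T-box genes 1 of 2 and of the other Zic and Gli genes 2 of 4 were higher, and of the other Gata genes, which include the gut epithelial factors Gata4 and Gata6, 0 of 3. Of all 14406 tested genes 13.4% were higher. Relatives with few WT counts could pass the low-count filter through the Eed KO libraries, so these counts add no support. In Ezh2 KO crypts none of these relatives passed the threshold. Sall1, of kidney and limb, was at 14.8 ± 2.75 CPM against 2 WT counts (ratio 280, 95% counting interval 77.1 to 2315). Foxc1 and Foxc2, of vessels and somites, were at 9.52 ± 2.85 and 3.92 ± 1.94 CPM against 6 counts and 1 count. Sp6 and Sp9, of skin and limb ridge, were at 9.41 ± 2.61 and 4.94 ± 0.810 CPM against 7 and 2 counts. The neuronal Tbr1, the blood factor Tal1 and the Notch target Hey1 were at 1.13 to 1.40 CPM against 1 to 2 WT counts.

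Of genes known to act downstream of the members, 4 of 15 tested were higher and 3 lower in Eed KO than in WT crypts (median log2 fold change 0.66). Of all tested genes 13.4% were higher. Shh, the hedgehog ligand of gut and limb, changed most, from 0.274 ± 0.160 to 4.64 ± 0.555 CPM in crypts (log2 fold change 4.03 ± 0.50, edgeR adjusted p = 0.000803) and from 0.161 ± 0.0148 to 5.39 ± 0.925 CPM in organoids. Of the noncoding neighbours of the members, 5 of 8 were in both tables, 3 were tested, and Foxl2os alone passed. Fendrr, next to Foxf1, had 12, 25 and 16 counts in Eed KO crypts and 0, 6 and 15 in WT crypts (edgeR adjusted p = 0.273), and Tbx3os2, next to Tbx3, had 9, 9 and 16 against 6, 2 and 4 (adjusted p = 0.143).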

How the data were processed

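The deposited values are raw counts of reads per gene, in 1 table for each of 2 sequencing runs (385 and 440), which the authors made with TopHat2 2.0.12, Bowtie 0.12.9 and HTSeq on GRCm38, per the submitters' processing notes. The tables list 23969 and 22634 genes, 21420 of them shared, and their gene models differ for some members. Gene names came from GENCODE M21 (24702 of 25183 identifiers). CPM were computed here from the deposited counts with TMM sizes of the 13 libraries, and CPM per kb with GENCODE M21 exon lengths.

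Crypts were fitted with group and run, organoids with group, and their comparison over all libraries, by the quasi-likelihood test of edgeR 4.0.16 (R 4.3.3), keeping genes with at least 10 counts in enough libraries and 15 in total, with Benjamini-Hochberg adjustment over all genes at 0.05. DESeq2 1.42.0 was an alternative. The fits were tested on simulated data. A group without a count was set to a floor of 3 counts over the group for a lower bound. With 1 to 3 counts an exact 95% interval of the ratio is given, and floors and intervals cover counting error only. Depth of 11421666 to 18300644 counts makes 1 count worth under 0.1 CPM. The members and gene lists were chosen with earlier results of these data known. Values in every library are given for the 10 members highest in CPM per kb in Eed KO crypts, those at 1 CPM or more on average in WT crypts and the 8 with the smallest interaction p. The relatives named are among the 12 past the threshold in Eed KO crypts with the largest change, of which 2 are not reported here. Other names were chosen after their values were seen.

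In crypts, deviations from the group means of same-numbered Eed KO and WT libraries correlated at 0.18, 0.386 and 0.35, and the numbers were taken to pair them. These values do not establish the pairing. Within run 385, Eed KO 385_1 correlated most with WT 385_2 (0.389). The 440_1 pair (0.35) is the only pair of its run, so run and number cannot be told apart there. Fits with the replicate block rest on this assumed pairing.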

Additional observations from a re-analysis of the deposited data

Results flagged for a closer look

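The Eed effect differed between crypts and organoids, by the interaction term of edgeR, for 3 members. The log2 difference was 4.002 for Sox21, 7.91 for Zic2 and 5.47 for Zic5. The value for Zic2 is not a measured size, since Zic2 had 0 counts in WT crypts. In all 3 the effect was larger in crypts, the WT organoids held counts, and the WT crypts held fewer or none. With the replicate number as a block none of the 3 passed the threshold.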

How the results depend on the processing

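The 24 members higher in Eed KO crypts, the 0 called in Ezh2 KO crypts and the 19 higher in Eed KO organoids stayed within 1.5 times those counts under every alternative run, with 23 to 26 and 16 to 19 when a library was left out. Most of the members behind the 24 and the 19 passed the low-count filter through the Eed KO libraries. The stability of these counts follows from that selection and adds no support. The count higher in Eed KO than in Ezh2 KO crypts was 5 without Eed KO crypt 440_1 and at most 26. The interaction count of 3 was 2 to 3 with a library left out and 0 with the replicate block. The 10 members higher in Eed KO crypts than in Eed KO organoids became 4 to 17 with a library left out and 18 in run 385 alone. The members higher in WT crypts than in WT organoids numbered 0 to 3. Hand2 turned from 0.95 to -0.63 between Eed KO and WT crypts within run 440, and from -0.34 to between -0.72 and 1.10 between Eed KO and Ezh2 KO crypts with a library left out. Sox21 in organoids, at -0.08, became -0.44 to 0.20 with a library left out. The causes were not tested. With the replicate block 23 of 25 members were higher in crypts (Tbx3 lost) and 20 in organoids (Zic5 gained, edgeR adjusted p = 0.0122). The organoid pairs share only a number. With 2 libraries per group the deviations mirror each other, so the correlations of 0.334 and -0.334 cannot decide the pairing. No paired analysis was possible for Ezh2 KO because it shares only 1 number with WT in its run. The direct contrasts of crypts with organoids within a genotype were added after seeing the data. Members under about 10 counts could not be tested at this depth.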
